A study of Mus musculus with 12 samples.

Results

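Corneodesmosin (Cdsn), angiopoietin-like 6 (Angptl6), carbonic anhydrase 6 (Car6), placenta expressed transcript 1 (Plet1), the ATP receptor subunit P2rx3 and dentin matrix protein 1 (Dmp1) are 6 genes of restricted expression, followed here in tumours of mice that received radiation, a compound called Complex 1, both or neither. They were matched by symbol: 6 of 55415 entries of the deposited table, each with 1 row, and all 6 passed the filter on low values. They had been picked from these libraries because their levels were lower in irradiated tumours. That difference is therefore described below with its size and error. Members past a threshold in it are also counted, but nothing is read from those counts as a test. Every tumour was grown in mice from CT26 cells, a line derived from a colon carcinoma of the BALB/c strain. The 4 groups of 3 libraries were combination tumours (Complex 1 with radiation), radiation tumours, Complex 1 tumours and untreated control tumours. The series title calls the compound an X-ray activated platinum complex. The labels name no dose, time, mouse sex or age, and do not place the sampled tumour inside or outside the irradiated field. They also do not say that libraries of a group came from separate animals, so the p-values below reflect only how these samples spread, which may be technical.

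The 6 genes have little in common in the healthy animal. Cdsn encodes an adhesive glycoprotein of the corneodesmosomes, the junctions that hold the dead outer cells of the epidermis and the inner root sheath of the hair together. Plet1 encodes a surface protein anchored by a lipid, found in the mouse on trophoblast progenitors and on some progenitors of the hair follicle and other epithelia. Car6 encodes the secreted carbonic anhydrase of saliva, and Angptl6 a secreted protein made mainly in the liver with effects on vessels and on energy use. P2rx3 forms an ion channel that opens on binding extracellular ATP and is best known from pain-sensing neurons. Dmp1 encodes an acidic phosphoprotein of bone and dentin matrix, made by osteocytes and odontoblasts.

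In mm39 coordinates of the deposited table the genes lie on 5 chromosomes. Cdsn (ENSMUSG00000039518) is at chr17:35863025-35868077 on the plus strand and Car6 (ENSMUSG00000028972) at chr4:150271472-150285789 on the minus strand. Angptl6 (ENSMUSG00000038742) at chr9:20785104-20791023, minus strand, and Plet1 (ENSMUSG00000032068) at chr9:50405825-50416782, plus strand, share chromosome 9 but are not neighbours. P2rx3 (ENSMUSG00000027071) is at chr2:84828927-84867806 on the minus strand and Dmp1 (ENSMUSG00000029307) at chr5:104350479-104361968 on the plus strand. Levels below are FPKM summed over a gene's exons, so they can be compared between these genes.

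Promoter sequences from RefSeq, in build GRCm38.p6 and therefore not comparable with the coordinates above, were found for 5 of the 6 genes, with 7 annotated starts. The 250 bases before the start are shown for the 3 genes with most motif matches. They are written 5′ to 3′ on the gene's own strand, and capitals mark every match to a motif searched on both strands.
Car6, chr4:150201136-150201385, minus strand: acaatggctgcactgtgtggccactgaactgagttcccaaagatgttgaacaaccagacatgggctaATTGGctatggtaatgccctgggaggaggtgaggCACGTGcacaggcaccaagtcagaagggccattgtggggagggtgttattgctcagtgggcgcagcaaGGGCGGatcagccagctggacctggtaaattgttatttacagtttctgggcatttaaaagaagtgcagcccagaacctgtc
Plet1, chr9:50494275-50494524, plus strand: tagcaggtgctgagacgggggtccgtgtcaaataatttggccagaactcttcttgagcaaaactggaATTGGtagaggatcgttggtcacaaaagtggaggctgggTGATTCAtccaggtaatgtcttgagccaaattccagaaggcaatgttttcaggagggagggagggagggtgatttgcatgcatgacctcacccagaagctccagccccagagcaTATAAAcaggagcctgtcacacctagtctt
Dmp1, first start, chr5:104197325-104197574, plus strand: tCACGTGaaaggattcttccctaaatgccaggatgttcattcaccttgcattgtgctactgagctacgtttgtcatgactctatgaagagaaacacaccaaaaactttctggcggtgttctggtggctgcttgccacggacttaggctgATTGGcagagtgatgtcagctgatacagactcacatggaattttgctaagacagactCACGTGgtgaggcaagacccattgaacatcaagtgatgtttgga

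The promoters shared no motif throughout. The CCAAT motif was in 4 of the 7 member promoters (Car6, Plet1 and both starts of Dmp1), against 37.4% of the 32851 promoters in the table. CACGTG, the E-box letters, occurred once in Car6 and at 2 positions in the first Dmp1 promoter, the nearer 44 bases before the start, and in 7.15% of all promoters. Plet1 alone held TATAAA, 30 bases before its start (13.6% of all promoters), and TGANTCA, the letters of the AP-1 site (7.81%). GGGCGG was in Car6 (35.7% of all promoters) and TTTGAA in the first Cdsn promoter (17.9%). TGACGT (7.51%) and TGATGNAA (3.97%) matched in none of the 7, and the Angptl6 promoter held none of the 8 motifs. No motif overlapped another in these sequences, and a match is a description of letters, not a binding site.

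Libraries held 15.6 to 19.1 M counts (M, mega counts). The 6 genes had 34 to 1505 counts each per library, a counting error of 2.58% to 17.2%, and 3 counts corresponded to 0.0563 to 0.122 FPKM. None was therefore at the floor in any library: levels in irradiated tumours were low, not absent. Such floors and errors cover counting only. Control libraries differed among themselves in ways the labels do not record. Control replicate 2 had 0.02 FPKM of Xist, the RNA of the inactive X chromosome, and 28 counts over 4 Y-linked genes, whereas the others had no more than 1 such count and 9.20 to 14.2 FPKM of Xist. Control replicate 3 carried keratinocyte transcripts, given below with Cdsn, and control replicate 1 had the highest level of all 6 genes within its group.

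Markers of the labelled tumour were partly present. Krt20, a keratin of intestinal epithelium, was at 66.6 to 148 FPKM over the 12 libraries and Krt18 at 2.81 to 7.72. Epcam reached at most 0.18 FPKM, Cdh1 1.05, Cdx2 0.15 and Vil1 0.11, so these epithelial markers were nearly absent. In bulk tumour, fewer cells of a kind and less RNA per cell cannot be told apart. Leukocyte markers summed to 191 to 231 FPKM in combination, 127 to 141 in radiation, 96.9 to 129 in Complex 1 and 73.8 to 86.3 in control tumours. Of the 6 tested leukocyte markers, 3 (Ptprc, Cd68 and Adgre1) rose in radiation against control, where 7.39% of all tested genes rose. Their list median was 0.63 on the log2 scale. The 8 carcinoma and colon epithelium markers, of which Krt20 made up most, summed to 88.6 to 108 FPKM in combination, 86.0 to 140 in radiation, 73.2 to 153 in Complex 1 and 123 to 154 in control tumours. Of the 2 tested, Krt18 fell in combination against control by 0.87 ± 0.27 (edgeR adjusted p = 0.0383, lost in 8 of the 20 alternatives, up to 0.137), and neither passed in radiation against control. The part of these marker differences in the levels of the 6 genes was not tested.

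Cdsn was low in every irradiated tumour. It was at 2.47, 1.67 and 1.17 FPKM in combination and 1.71, 2.38 and 1.56 in radiation libraries, against 7.06, 7.73 and 4.36 in Complex 1 and 12.98, 4.94 and 5.5 in control libraries. The highest irradiated library stayed below the lowest of the other 6, while Complex 1 and control overlapped, as did combination and radiation. Group means were 1.77 ± 0.656 in combination, 1.88 ± 0.437 in radiation, 6.38 ± 1.78 in Complex 1 and 7.81 ± 4.49 FPKM in control tumours (SD, n = 3 each).

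Angptl6 followed the same pattern at a slightly higher level. Combination libraries held 2.99, 2.99 and 2.85 FPKM and radiation libraries 2.08, 3.60 and 3.63, against 11.68, 10.21 and 6.33 in Complex 1 and 18.97, 8.24 and 6.96 in control libraries. Again no irradiated library reached the lowest non-irradiated one. The means were 2.94 ± 0.0808 in combination, 3.10 ± 0.886 in radiation, 9.41 ± 2.76 in Complex 1 and 11.4 ± 6.60 FPKM in control tumours (SD, n = 3 each).

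Car6 had the widest spread of the 6 genes among control tumours. Its level was 3.96, 2.86 and 2.48 FPKM in combination and 2.73, 3.28 and 2.48 in radiation libraries, against 14.09, 12.81 and 3.20 in Complex 1 and 24.91, 7.61 and 3.61 in control libraries. Complex 1 replicate 3 and control replicate 3 were near the irradiated libraries, and combination replicate 1 lay above both of them. The means were 3.10 ± 0.769 in combination, 2.83 ± 0.409 in radiation, 10.03 ± 5.95 in Complex 1 and 12.04 ± 11.3 FPKM in control tumours (SD, n = 3 each). The coefficient of variation in control tumours was 94.0% for Car6, the highest of the 6 genes, and 38.5% for Dmp1, the lowest.

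Plet1 was nearly constant in combination tumours and wide in Complex 1 tumours. It was at 2.95, 3.01 and 3.05 FPKM in combination, 2.75, 4.58 and 5.07 in radiation, 15.29, 8.26 and 3.17 in Complex 1 and 10.26, 5.86 and 5.10 in control libraries. Radiation replicate 3 (5.07) lay just below control replicate 3 (5.10), so the radiation and control groups were separated only narrowly. The means were 3.003 ± 0.0503 in combination, 4.13 ± 1.22 in radiation, 8.91 ± 6.09 in Complex 1 and 7.07 ± 2.79 FPKM in control tumours (SD, n = 3 each). Plet1 and P2rx3 were the 2 members with a higher mean in Complex 1 than in control tumours.

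P2rx3 had the lowest level of the 6 genes. Its values were 0.95, 1.16 and 0.91 FPKM in combination and 0.68, 1.34 and 0.96 in radiation libraries, against 4.09, 3.13 and 1.77 in Complex 1 and 4.56, 2.01 and 1.52 in control libraries. Irradiated and non-irradiated libraries did not overlap, by a small margin between radiation replicate 2 and control replicate 3. The means were 1.01 ± 0.134 in combination, 0.993 ± 0.331 in radiation, 2.997 ± 1.17 in Complex 1 and 2.70 ± 1.63 FPKM in control tumours (SD, n = 3 each).

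Dmp1 had a different order of groups. It was at 4.84, 3.70 and 9.48 FPKM in combination, 20.22, 13.44 and 8.10 in radiation, 14.90, 10.46 and 9.55 in Complex 1 and 29.71, 20.54 and 13.40 in control libraries. The combination libraries lay below all Complex 1 and control libraries, narrowly so for combination replicate 3 (9.48) and Complex 1 replicate 3 (9.55), while 2 of 3 radiation libraries lay within the control range. The means were 6.01 ± 3.06 in combination, 13.9 ± 6.07 in radiation, 11.6 ± 2.86 in Complex 1 and 21.2 ± 8.18 FPKM in control tumours (SD, n = 3 each). Dmp1 thus had its lowest mean in combination and its highest in control tumours, with radiation and Complex 1 tumours overlapping between them.

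**Figure D1:**
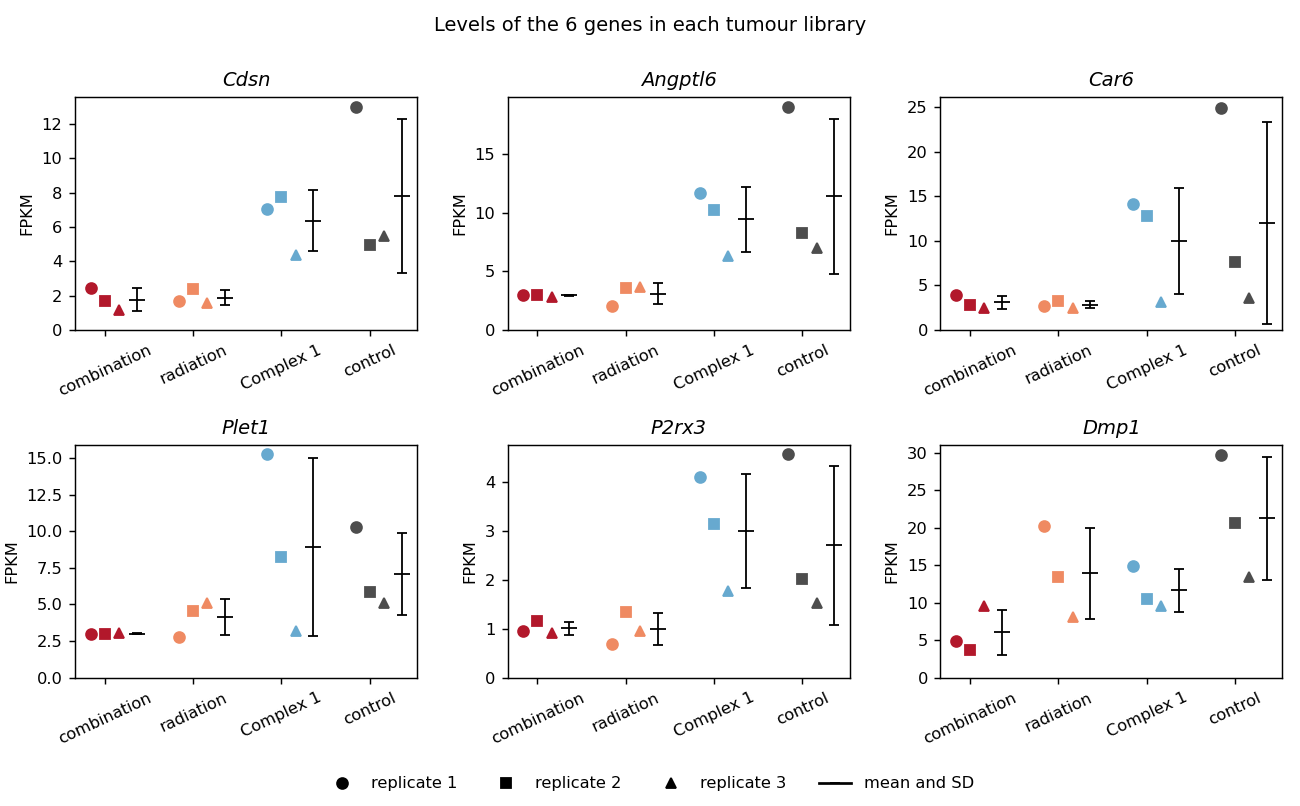
Level of each of the 6 genes (FPKM, y axis, linear, own scale per gene) in the 3 libraries of the combination, radiation, Complex 1 and control groups (x axis). Points are libraries, marked by replicate, and bars are the mean and SD. Control replicate 1 is the highest control library in every panel, and for Dmp1 the radiation libraries reach into the control range.

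As log2 fold changes with their SE, fitted to the counts with edgeR, radiation against control was largest for Car6 (-2.12 ± 0.62), Cdsn (-2.08 ± 0.38) and Angptl6 (-1.90 ± 0.36). P2rx3 was at -1.46 ± 0.41, Plet1 at -0.80 ± 0.43 and Dmp1 at -0.64 ± 0.37. Ordered from the lowest change among the 13668 tested genes, Car6 stood at place 17, Cdsn 19, Angptl6 25, P2rx3 48, Plet1 233 and Dmp1 376. The rule gave no numerical threshold. The 3 tested genes outside the list with the lowest changes were Cstdc5 (-6.37 ± 2.41), Gm24045 (-4.45 ± 1.29) and Mir7664 (-4.45 ± 1.62).

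Combination against control gave -2.20 ± 0.38 for Cdsn, -2.01 ± 0.62 for Car6, -2.0 ± 0.36 for Angptl6, -1.86 ± 0.39 for Dmp1, -1.47 ± 0.41 for P2rx3 and -1.28 ± 0.45 for Plet1. All 6 were among the 81 lowest changes of that comparison. Combination against Complex 1 does not set a group against the controls, but its SE rests on a spread estimated from all 12 libraries, controls included. It gave -1.88 ± 0.38 for Cdsn, -1.72 ± 0.62 for Car6, -1.70 ± 0.36 for Angptl6, -1.60 ± 0.41 for P2rx3, -1.59 ± 0.44 for Plet1 and -0.97 ± 0.39 for Dmp1. The first pair of comparisons share the control libraries and the last pair share the combination libraries, so the values are set side by side only.

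Genes passed where the Benjamini-Hochberg (BH) adjusted p of the fit over all tested genes was under 0.05. In radiation against control 4 of the 6 members were past that threshold and lower (Cdsn, Angptl6, Car6 and P2rx3), where 5.85% of all tested genes were called lower. In combination against control it was 5 of 6 (without Plet1), against 10% of tested genes called lower. In combination against Complex 1 it was 4 of 6 (Cdsn, Angptl6, Plet1 and P2rx3), against 5.25%. The members were picked for this difference, so nothing is read from these counts. Every irradiated library was below every non-irradiated library of the comparison for 5 of 6 members in radiation against control (12% of tested genes), 5 in combination against control (14.1%) and 5 in combination against Complex 1 (14%). The exception was Dmp1 in the first comparison and Car6 in the other two. The members' median change was -1.68 in radiation against control, -1.93 in combination against control and -1.65 in combination against Complex 1. Over all tested genes these medians were between -0.0068 and -0.0041.

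**Figure D2:**
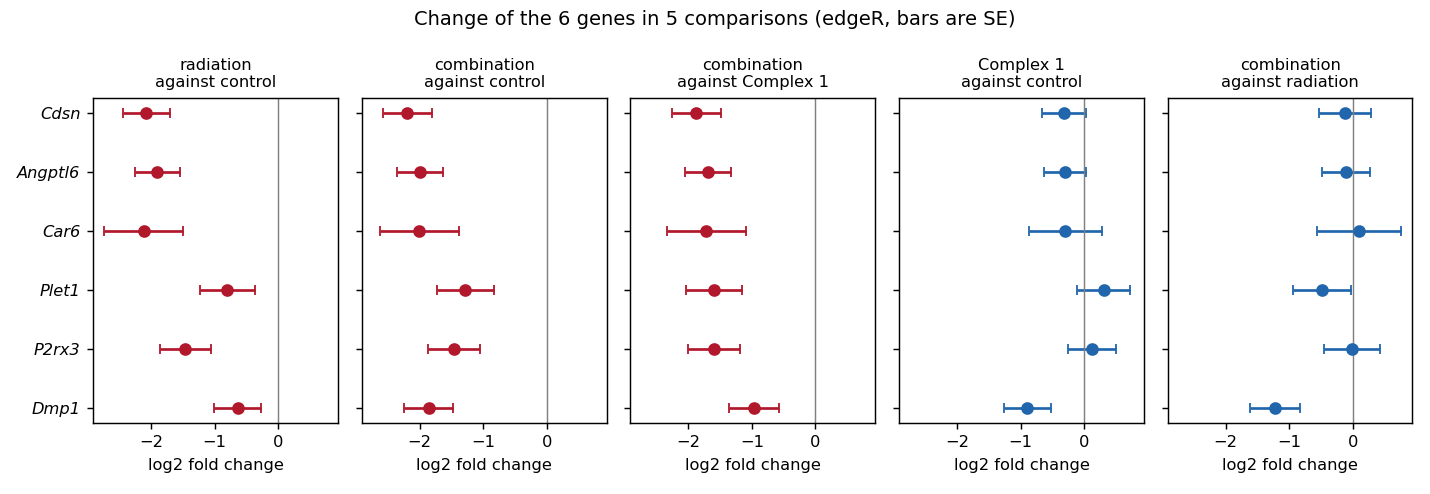
Log2 fold change of each gene (x axis) in 5 comparisons, with the first group named over the second in each title. Points are edgeR estimates and bars their SE. The 3 panels with red points compare irradiated with non-irradiated tumours and lie below 0 for all 6 genes, while in the 2 panels with blue points only Dmp1 lies further than 2 SE from 0.

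The size of the difference from control rested in part on control replicate 1. Without that library, radiation against control was -1.49 for Cdsn, -1.32 for Angptl6, -1.02 for Car6, -0.85 for P2rx3, -0.43 for Plet1 and -0.32 for Dmp1. Combination against control was then -1.61 for Cdsn, -1.54 for Dmp1, -1.42 for Angptl6, -0.92 for Plet1, -0.91 for Car6 and -0.86 for P2rx3. The direction did not turn for any of the 6. Without it, 2 members (Cdsn and Angptl6) were past the threshold in radiation against control and 3 (Cdsn, Angptl6 and Dmp1) in combination against control. Leaving out control replicate 2, the library with almost no Xist, gave larger differences instead, such as -2.32 for Cdsn and -2.36 for Car6 in radiation against control, with 3 members past the threshold (Cdsn, Angptl6 and P2rx3). Leaving out control replicate 3 gave -2.16 for Angptl6 and -2.55 for Car6. The count in radiation against control was also 2, the same genes, without radiation replicate 1 or 3. That in combination against control was also 3, the same genes, without combination replicate 1 or 3. In combination against Complex 1, Cdsn and Angptl6 alone were past the threshold without any one of the combination libraries or without Complex 1 replicate 1 or 2. Cdsn and Angptl6 were past the threshold in all 3 irradiated comparisons under each of the 20 alternatives run. The number of all tested genes called also changed with a library left out. It was 865 to 2014 in radiation against control (1810 with all libraries) and 2076 to 3176 in combination against control (2992). In combination against Complex 1 it was 582 to 1884 (1364). The members were picked for this difference, so no support is drawn from these passes.

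**Figure D3:**
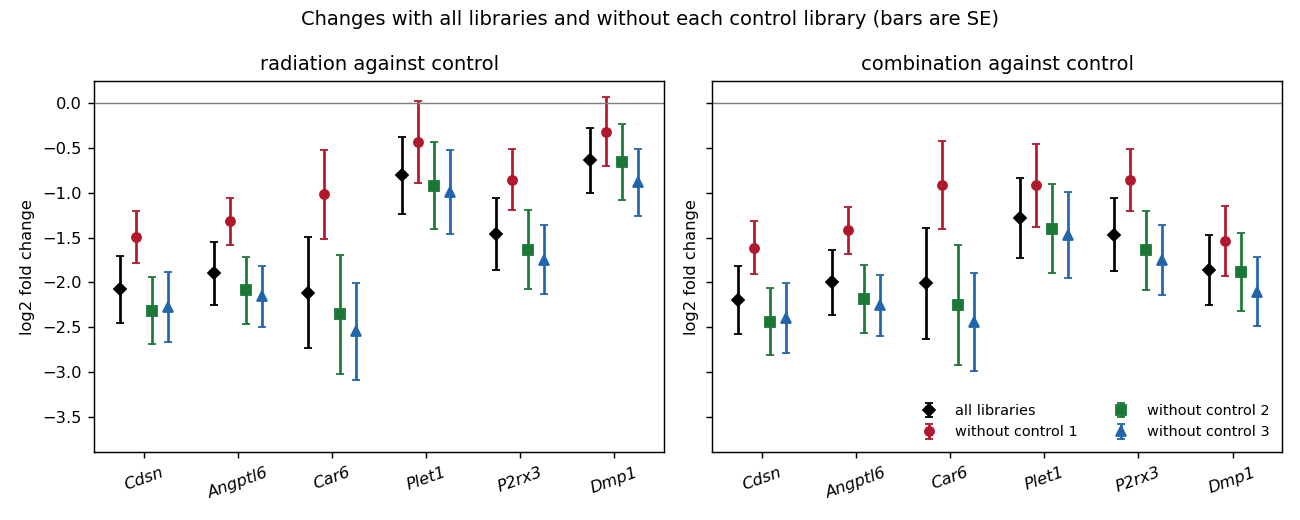
Log2 fold change ± SE (y axis) of each gene with all libraries and without each control library in turn, for radiation against control (left) and combination against control (right). Without control replicate 1 every estimate moves towards 0 and stays below 0: Car6 in radiation tumours is at -1.02, against -2.12 with all libraries.

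Complex 1 against control was not among the comparisons that picked the genes, though it uses the same control libraries. None of the 6 passed (edgeR, BH-adjusted over 13668 genes, and 0 by DESeq2 and limma as well), where 0.812% of tested genes passed in either direction. At an unadjusted edgeR p under 0.05 it was 1 of the 6, beside 1708 of all 13668 tested genes. Dmp1 had the lowest p, with a change of -0.89 ± 0.37 (95% interval -1.69 to -0.09, edgeR adjusted p = 0.348), and its Complex 1 and control libraries overlapped. Cdsn changed by -0.32 ± 0.35 (-1.07 to 0.43, edgeR adjusted p = 0.761) and Angptl6 by -0.30 ± 0.33 (-1.02 to 0.41, edgeR adjusted p = 0.764). Car6 was at -0.29 ± 0.57 (-1.52 to 0.94, edgeR adjusted p = 0.882), the widest interval of the 6. Plet1 was at 0.31 ± 0.42 (-0.59 to 1.21, edgeR adjusted p = 0.817) and P2rx3 at 0.13 ± 0.38 (-0.68 to 0.94, edgeR adjusted p = 0.927). The direction for Cdsn, Angptl6 and Car6 turned without control replicate 1, to 0.26, 0.28 and 0.81.

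Combination against radiation asks whether Complex 1 changed the genes further in irradiated tumours, and it shares its libraries with the comparisons that picked them. None of the 6 passed (edgeR; 0 by DESeq2 and limma; 1 at an unadjusted p under 0.05), against 0.651% of tested genes in either direction. Dmp1 was again the gene with the lowest p, at -1.22 ± 0.39 (95% interval -2.06 to -0.39, edgeR adjusted p = 0.278). Combination replicate 3 overlapped with the radiation libraries for Dmp1, and without it the change was -1.72 (edgeR adjusted p = 0.12, range 0.12 to 0.625 over the libraries left out). Plet1 was at -0.48 ± 0.46 (-1.46 to 0.50, edgeR adjusted p = 0.757). Cdsn (-0.12 ± 0.41, interval -0.995 to 0.755), Angptl6 (-0.10 ± 0.38, -0.92 to 0.72), Car6 (0.10 ± 0.66, -1.33 to 1.54) and P2rx3 (-0.01 ± 0.44, -0.95 to 0.93) had edgeR adjusted p-values of 0.946 to 0.998. As folds, 0.502 to 1.69 lies inside the interval of Cdsn, 0.527 to 1.65 inside that of Angptl6, 0.518 to 1.91 inside that of P2rx3 and 0.399 to 2.90 inside that of Car6.

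The difference of the irradiation differences, combination minus Complex 1 against radiation minus control, was 0.20 ± 0.53 for Cdsn, 0.20 ± 0.51 for Angptl6, 0.40 ± 0.87 for Car6, -0.79 ± 0.62 for Plet1, -0.14 ± 0.58 for P2rx3 and -0.33 ± 0.53 for Dmp1 (log2 ± SE). Only for Plet1 did the estimate exceed its own SE. Since its 2 terms picked the members, it is given without a test.

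The 6 genes varied more between replicates than most genes did. The biological coefficient of variation estimated by edgeR was 48.5% for Car6, 35.7% for Plet1, 32.5% for P2rx3, 31.8% for Dmp1, 30.2% for Cdsn and 28.6% for Angptl6, beside a median of 9.46% over tested genes. Within groups the variation was shared. Control replicate 1 was the highest control library for 6 of 6 members, Complex 1 replicate 3 the lowest of its group for 6 of 6, and control replicate 3 the lowest of its group for 5.

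After the group means were removed, deviations in log2(CPM + 1) of Cdsn, Angptl6, Car6, Plet1 and P2rx3 varied together over the 12 libraries. The 10 pairs among these 5 genes had a median Pearson r of 0.846 (0.597 to 0.962) and a median Spearman rho of 0.815. Without the 3 control libraries the median r was 0.807 (0.506 to 0.924). It was 0.780 after dropping, pair by pair, the 2 libraries farthest from the median of the pair's first gene. Dmp1 stood apart: its 5 pairs with the others had a median r of 0.258 (0.222 to 0.470), and -0.028 without the controls. Over all pairs of tested genes the median was 0.0042, and 10.2% of pairs were over 0.5, beside 10 of the 15 member pairs. The points share libraries, depth and the 3-library group means, and these values are a description without a test.

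**Figure D4:**
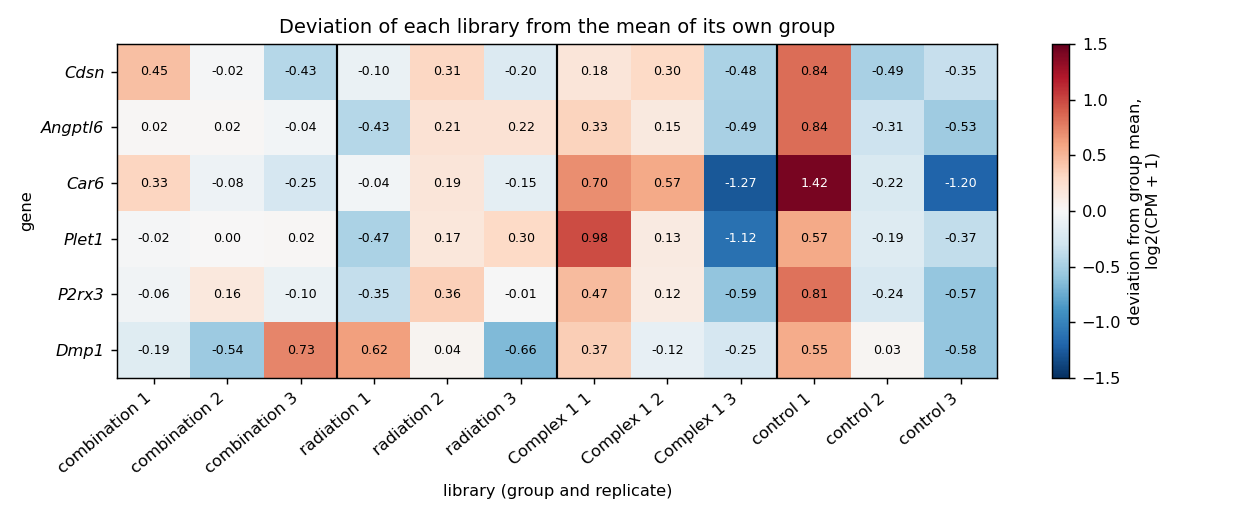
Deviation of each library (columns, in groups of 3) from the mean of its own group in log2(CPM + 1) for each gene (rows), with red above and blue below the mean. The columns of control replicate 1 and Complex 1 replicate 3 have 1 colour for all 6 genes, and Dmp1 has the opposite sign to all 5 other genes in radiation replicate 1, Complex 1 replicate 2 and control replicate 2.

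Across all 12 libraries, groups included, the genes with the most similar pattern were mostly not other members. For Cdsn they were Emp2, a tetraspan membrane protein (Pearson r 0.983 in log2(FPKM + 1)), Xpot, the export receptor for tRNA (0.980), and Mid1ip1 (0.978). Angptl6 was nearest to Eprs, a tRNA synthetase (0.982), Cyb5r1 (0.978) and the pseudokinase gene Trib3 (0.975). Angptl6 was in turn the best-placed member for Cdsn, at place 13 of 13667 with r 0.966.

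Car6 was nearest to Sh2d6 (0.966), Gm17173 (0.965) and Cnnm4 (0.959). Plet1 was nearest to Hbegf, a ligand of the EGF receptor (0.947), Mtif2 (0.946) and Lrrfip1 (0.933). P2rx3 was nearest to Parvb (0.964), Erlin1 (0.964) and, as the third, the member Angptl6 (0.963). Dmp1 was nearest to Bod1l (0.957), the chromatin remodelling subunit gene Bptf (0.947) and Asap2 (0.931), and its best-placed member, Cdsn (0.567), stood at place 1034. Likeness over these libraries includes the group difference the members were picked for and is a description only.

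The neighbours of Cdsn and Dmp1 were almost silent. Psors1c2, 17.5 kb from Cdsn, reached at most 0.65 FPKM and Sfta2, 44.4 kb on the other side, 0.19. Dspp and Ibsp, the tooth and bone matrix genes that flank Dmp1 at 22.5 and 85.1 kb, reached at most 0.01 and 0.06 FPKM. Dmp1 was therefore measured at 3.70 to 29.7 FPKM between near-silent flanking genes. Spp1, of the same protein family, was not silent, at 1651 to 3565 FPKM.

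For the genes on the other sides, Rdh8 near Angptl6 and Slc2a7 near Car6 were listed at 0 in every library, and Prg3 near P2rx3 reached at most 0.11 FPKM. Ppan beside Angptl6, Pts and Rpl10-ps3 beside Plet1 and Tnks1bp1 beside P2rx3 passed in none of the 5 comparisons. Eno1, the glycolytic enolase gene 35.4 kb from Car6, averaged 288 FPKM in combination and 337 in control tumours. It fell in combination against control by 0.27 ± 0.08 on the log2 scale (edgeR adjusted p = 0.0259), a call lost in 8 of the 20 alternatives (adjusted p up to 0.101).

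Overlapping genes bear on what the counts hold, because the strand setting of the counting is not given in the sources used here. P2rx3 overlaps Ssrp1, a histone chaperone gene on the opposite strand, over 229 bases. Ssrp1 averaged 89.9 FPKM in combination, 93.5 in radiation, 110 in Complex 1 and 112 in control tumours. It fell in radiation against control by 0.29 ± 0.07 (edgeR adjusted p = 0.0163, lost in 4 of the 20 alternatives, with adjusted p up to 0.0597), in combination against control by 0.36 ± 0.07 (edgeR adjusted p = 0.00237) and in combination against Complex 1 by 0.31 ± 0.07 (edgeR adjusted p = 0.0133, lost in 3 of the 20 alternatives). In transcript sequence 0.32% of the 31-base stretches of P2rx3 also occurred in Ssrp1 on the opposite strand.

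Angptl6 overlaps Shfl over 500 bases on the opposite strand, and 15.2% of its 31-base stretches lay there. Shfl was at 3.16 FPKM in combination, 2.83 in radiation, 2.96 in Complex 1 and 2.24 in control tumours and passed in none of the comparisons, with means in the opposite order to Angptl6 between irradiated and control tumours. Plet1 lies wholly within Plet1os on the opposite strand, which was listed at no more than 0.18 FPKM. Of its 31-base stretches, 13.6% occurred in another locus, 207 of these 258 in Plet1os. Cdsn and Car6 shared no 31-base stretch with another locus and Dmp1 0.402%.

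Most listed markers of tissues that normally use these genes were low in the tumours. Of 11 keratinocyte markers, 7 were below 1 FPKM in every library. Their sum was 3.09 to 3.92 FPKM in combination, 2.76 to 3.64 in radiation, 3.20 to 4.61 in Complex 1 and 3.74, 4.41 and 13.1 in control replicates 1, 2 and 3. Krt5 and Krt14, the basal keratins, were at 1.34 and 2.47 FPKM in control replicate 3, and at 0 and 0.06 in control replicate 1, the library with the most Cdsn (12.98 FPKM). Cdsn in control replicate 3 was 5.5 FPKM, so the keratinocyte sum and Cdsn were highest in different libraries. Of the 2 tested keratinocyte markers Krt10 fell in radiation against control by 1.13 ± 0.31 (edgeR adjusted p = 0.0299) and in combination against control by 0.97 ± 0.31 (edgeR adjusted p = 0.0379), calls lost in 6 and 7 of the 20 alternatives (adjusted p up to 0.104 and 0.17).

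**Figure D5:**
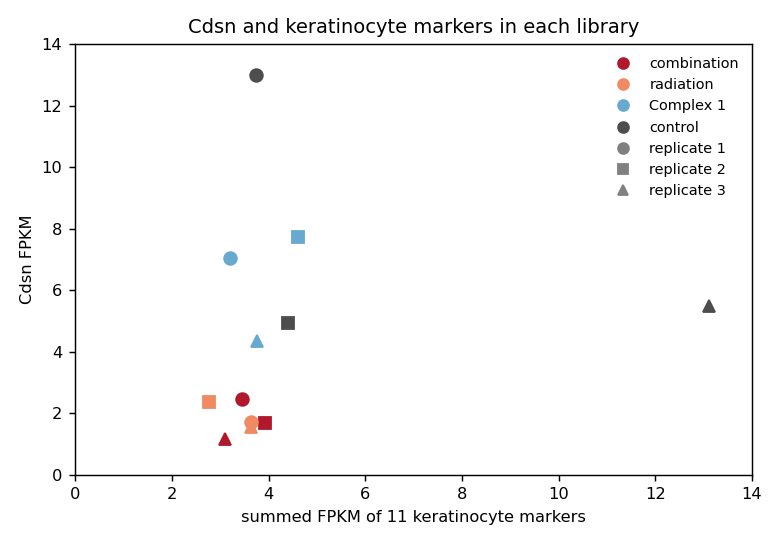
Cdsn level (FPKM, y axis) against the summed FPKM of 11 keratinocyte markers (x axis) in each of the 12 libraries, coloured by group and marked by replicate. Control replicate 3 stands at a sum of 13.1 with 5.5 FPKM of Cdsn, and control replicate 1 has the highest Cdsn, 12.98 FPKM, at a sum of 3.74.

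Outside skeletal muscle, most markers of other tissues were below 1 FPKM in every library. Exceptions were Aqp5 (0.75 to 1.43 FPKM), Smr3a (up to 1.33), Phex (1.26 to 3.14), Apoa1 (up to 1.37) and Tubb3. Salivary and serous gland markers summed to 0.93 to 3.28 FPKM over all libraries, with Pip and Dcpp1 at 0 throughout. Osteoblast and osteocyte markers summed to 1.74 to 3.45 FPKM, with 7 of 8 below 1 FPKM in every library. That sum leaves out genes placed in the mineralised matrix list below. Of these, Spp1 was at 1651 to 3565 FPKM, Runx2 at 10.2 to 13.7, Fam20c at 8.23 to 10.5 and Bmp1 at 7.49 to 11.7. Enpp1 reached at most 0.69, Alpl 0.19, Fgf23 0.07 and Dspp 0.01 FPKM. Of 9 sensory neuron markers 8 were below 1 FPKM throughout, Snap25 and Isl1 at 0, and nearly all of the sum came from Tubb3 (8.90 to 15.5 FPKM). Hepatocyte markers summed to 0.52 to 1.39 FPKM with Fgb and Ttr at 0, and all 6 Schwann cell markers were below 1 FPKM. Skeletal muscle markers varied within groups, from 1.48 to 8.95 FPKM in combination, 2.04 to 15.9 in radiation, 0.93 to 3.05 in Complex 1 and 2.52 to 5.13 in control tumours.

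Relatives of the 6 genes by family or role were taken from lists drawn up with earlier results of these data known. Those that passed moved in both directions over the lists together. Among the angiopoietins and the purinergic genes they only rose. Counts below can be read against the share of all tested genes: 7.39% rose and 5.85% fell in radiation against control, 11.9% rose and 10% fell in combination against control, and 4.73% rose and 5.25% fell in combination against Complex 1. Of 28 desmosome and cornified envelope genes around Cdsn in the table only 3 could be tested. None passed in radiation against control (median change -0.19, beside -0.0055 for all tested genes). Tgm1, the transglutaminase that cross-links the cornified envelope, rose in combination against control (1.38 ± 0.37, edgeR adjusted p = 0.0166), with mean levels of 1.62 FPKM in combination and 0.607 in control tumours. This call was lost without combination replicate 1, combination replicate 3 or control replicate 1 (adjusted p up to 0.068).

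Angiopoietins and their receptors, the family of Angptl6, had 5 tested members. Angptl4 and Angptl7 rose and none fell in radiation against control (7.39% of all tested genes rose), in combination against control (11.9%) and in combination against Complex 1 (4.73%). The list's median change in radiation against control was 0.37, beside -0.0055 for all tested genes. Angptl7 averaged 1.67 ± 0.255 FPKM in combination, 1.22 ± 0.278 in radiation, 0.213 ± 0.153 in Complex 1 and 0.110 ± 0.0529 in control tumours (SD, n = 3 each). It rose by 3.41 ± 0.44 in radiation against control (edgeR adjusted p = 0.0010). Angptl4, an inhibitor of lipoprotein lipase, averaged 26.7 ± 3.52 FPKM in combination, 14.5 ± 1.71 in radiation, 14.2 ± 1.54 in Complex 1 and 9.83 ± 1.18 in control tumours (SD, n = 3 each). Angptl4 rose in combination against radiation too (0.86 ± 0.12, edgeR adjusted p = 0.00596), and its smaller rise in radiation against control (0.54 ± 0.12, edgeR adjusted p = 0.0136) was lost without radiation replicate 3 or control replicate 1.

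Among 7 tested carbonic anhydrases 1 rose in radiation against control, where 7.39% of all tested genes rose, and 1 rose and 1 fell in combination against control (11.9% and 10%). With so few genes these counts are near the overall shares, and the list's median change in radiation against control was 0.08. Car2, a cytosolic form, rose by 1.44 ± 0.27 in radiation against control (edgeR adjusted p = 0.00506) and by 2.12 ± 0.27 in combination against control (edgeR adjusted p = 0.00024). Its mean level was 3.54 ± 0.231 FPKM in combination, 2.19 ± 0.484 in radiation, 1.14 ± 0.119 in Complex 1 and 0.790 ± 0.380 in control tumours (SD, n = 3 each). Car5b, a mitochondrial form, fell in combination against control by 0.30 ± 0.08 (edgeR adjusted p = 0.0208), a call lost in 5 of the 20 alternatives.

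Of 9 tested purinergic receptors and ectonucleotidases, the group of P2rx3, 5 rose and none fell in radiation against control, where 7.39% of all tested genes rose. The list's median change was 0.75 in that comparison, beside -0.0055 over all tested genes. P2ry6, a receptor for UDP, rose by 0.94 ± 0.13 (edgeR adjusted p = 0.0012) to 10.4 FPKM in radiation tumours, against 5.30 FPKM in control tumours. P2ry13, a receptor for ADP, rose by 1.33 ± 0.21 (edgeR adjusted p = 0.00227), and Entpd1, the ectonucleotidase CD39 that degrades ATP, by 0.78 ± 0.19 (edgeR adjusted p = 0.0165, lost in 4 of the 20 alternatives). The others that rose were P2rx4 and P2ry10, of which P2ry10 was named after its values were seen. P2rx4, a channel subunit of the same family as P2rx3, averaged 7.63 ± 0.390 FPKM in combination, 7.33 ± 0.338 in radiation, 5.68 ± 0.426 in Complex 1 and 5.57 ± 0.206 in control tumours (SD, n = 3 each), higher in irradiated than in non-irradiated tumours where P2rx3 was lower. Of the 6 tested leukocyte markers 3 rose in the same comparison, while Cd3e, Cd8a and S100a8 did not pass (edgeR adjusted p of 0.424, 0.642 and 0.778), and their part in these values was not tested.

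The list for Dmp1, mineralised matrix genes and their regulators, had 5 tested members. In radiation against control 1 rose and 1 fell (7.39% and 5.85% of all tested genes), with a list median of -0.17. Bmp1, a protease that cleaves matrix precursors, rose by 0.42 ± 0.08 (edgeR adjusted p = 0.00484). Phex, an endopeptidase of osteocytes that acts in phosphate balance, fell by 0.81 ± 0.14 (edgeR adjusted p = 0.00345). Phex averaged 1.5 ± 0.208 FPKM in combination, 1.61 ± 0.193 in radiation, 2.26 ± 0.149 in Complex 1 and 2.77 ± 0.361 in control tumours (SD, n = 3 each). Spp1, osteopontin, of the same protein family as Dmp1, fell in combination against control by 0.75 ± 0.19 (edgeR adjusted p = 0.0117), with means of 1859 FPKM in combination and 3026 FPKM in control tumours. The Spp1 call was lost without combination replicate 2 or control replicate 1.

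Of 7 tested epithelial and trophoblast progenitor genes, the list for Plet1, 1 rose and 2 fell in radiation against control, and 3 rose and 2 fell in combination against control. Over all tested genes 7.39% rose and 5.85% fell in the first comparison and 11.9% and 10% in the second, and the list's median change was 0.0059 in the first and -0.15 in the second. Itga6, an integrin of basal epithelial cells, averaged 23.6 ± 1.44 FPKM in combination, 27.2 ± 1.43 in radiation, 35.9 ± 0.0681 in Complex 1 and 38.8 ± 4.05 in control tumours (SD, n = 3 each). It fell by 0.54 ± 0.08 in radiation against control (edgeR adjusted p = 0.0014). Lgr6, a marker of hair follicle progenitors, fell by 2.32 ± 0.39 in combination against control (edgeR adjusted p = 0.00127) and by 1.42 ± 0.36 in radiation against control (edgeR adjusted p = 0.0232, lost in 5 of the 20 alternatives). Eomes, a transcription factor of trophoblast stem cells and of T and NK cells, rose by 1.64 ± 0.32 in radiation against control (edgeR adjusted p = 0.00653). Lrig1 and Ly6a also rose in combination against control, and Ly6a was named after its values were seen. None of the 6 family lists had a member that passed in Complex 1 against control.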

How the data were processed

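Total RNA of CT26 tumours was sequenced in 12 libraries, prepared with the NEBNext Ultra RNA kit per the labels' protocols. The submitters' processing notes name the build mm39 and the tools HTSeq 2.0.1, STAR 2.5.3a and DESeq2, without saying what each was used for. The deposited table gives raw counts and FPKM per gene and library for 55415 entries, 1492 of them without a symbol. FPKM recomputed from the deposited counts and exonic lengths matched the authors' FPKM within 0.005.

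Genes with at least 1 FPKM in at least 3 libraries (13668) were tested with edgeR 4.0.16 in R 4.3.3 (quasi-likelihood test, TMM scaling, 1 mean per group, all 12 libraries). P-values were adjusted by Benjamini-Hochberg over all tested genes, with a threshold of 0.05. FPKM served only as levels, and log2 values used a pseudocount of 1. The 6 genes, the family and marker lists and the tests were chosen with earlier results of these data known. The other genes named were, by rule, the 3 most similar to each member, its neighbours, the 3 lowest in radiation against control, and up to 3 with the smallest p among passing genes of a family list. Alternatives used DESeq2 1.42.0, limma 3.58.1, other scaling, filters and groups, robust estimation, a replicate term and each library left out. On simulated counts for radiation against control (13668 genes), 89% of 100 genes lowered 2-fold and 98% of 100 lowered 4-fold were called. There were 6 calls among unchanged genes. The 6 members had a biological coefficient of variation of 28.6% to 48.5%, beside a median of 9.46%. These shares need not hold for genes that vary so much.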

Additional observations from a re-analysis of the deposited data

How the results depend on the processing

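In radiation against control, 2 of the 6 genes passed with limma on log2(FPKM + 1) or log2(FPKM + 0.1), with only the 2 groups compared or with robust estimation, and 2 to 4 without each library in turn. In combination against control 3 passed with either limma fit, and 3 to 6 with a library left out. In combination against Complex 1 it was 2 with either limma fit, and 2 to 5 with a library left out. The fewest were left without radiation replicate 1, radiation replicate 3 or control replicate 1 in the first comparison, without combination replicate 1, combination replicate 3 or control replicate 1 in the second, and without any combination replicate or Complex 1 replicate 1 or 2 in the last. Since the members were picked for a difference in these 3 comparisons, the counts describe the fits and are not support for it. The number of all tested genes called changed between fits as well, with ranges below. Without a library Complex 1 against control and combination against radiation kept 0 of 6.

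With no filter on low genes, Dmp1 passed in Complex 1 against control (-0.91, edgeR adjusted p = 1.059e-15) and in combination against radiation (-1.22, edgeR adjusted p = 2.426e-26), 1 member in each. That fit gave an infinite prior number of degrees of freedom, so genes kept no spread of their own, and its p-values carry no replicate error of Dmp1. Genes passing were then 2285 in combination against Complex 1, 803 in Complex 1 against control and 529 in combination against radiation, beside 1364, 111 and 89 with the filter. DESeq2 called 326 genes in Complex 1 against control and 187 in combination against radiation, and the fit of only the 2 groups 45 in Complex 1 against control. With a library left out the counts were 865 to 2014 genes in radiation against control, 2076 to 3176 in combination against control, 582 to 1884 in combination against Complex 1, 4 to 236 in Complex 1 against control (4 without control replicate 2) and 25 to 100 in combination against radiation (25 without radiation replicate 1).

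Direction turned only in Complex 1 against control and combination against radiation, for changes smaller than their SE. A single library could move such a change far: Car6 in Complex 1 against control went from -0.29 to 0.81 without control replicate 1. P2rx3 in combination against radiation was 0.0125 with library totals, 0.0208 and 0.0555 with the limma fits, and -0.22 to 0.27 with a library left out. In that comparison the ranges were -0.44 to 0.12 for Cdsn, -0.32 to 0.027 for Angptl6 and -0.11 to 0.25 for Car6. In Complex 1 against control they were -0.56 to 0.26 for Cdsn, -0.56 to 0.28 for Angptl6, -0.73 to 0.81 for Car6, -0.35 to 0.71 for Plet1 and -0.17 to 0.74 for P2rx3. In the 3 irradiated comparisons no alternative turned the direction of any of the 6 genes. The cause of these shifts was not tested.

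Same-numbered libraries were little alike: over 18 pairs the correlation of deviations was -0.185 to 0.144, and 4 were over 0.1. For each combination library the same-numbered control was the best match among controls (r 0.117, 0.0448 and 0.121). Between the other groups the best match mostly had a different number. Such low values cannot settle whether samples were paired. With a replicate block 4, 5 and 5 members passed in radiation against control, combination against control and combination against Complex 1, and 0 in the other comparisons. Nothing is read from these counts either, and the share of all genes called with the block is not set beside them. Each group holds 3 libraries, and the lowest count of a member, 34, has a counting error of 17.2%.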
